A study of Mus musculus with 59 samples.

Results

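Genes that the liver expresses before birth and shuts down afterwards, and the genes through which the liver produces and controls insulin-like growth factors (IGFs), were followed in mouse liver at 4 weeks of age. The set was 10 named genes: the fetal liver genes Afp, H19, Igf2, Dlk1 and Gpc3, the postnatal repressor Zhx2, and the IGF genes Igf1, Igfals, Ghr and Igfbp2. A gene was kept where the array held a probe set (a group of short probes read as 1 value) annotated to that symbol alone. H19 was dropped by this rule, since its probe set also carries the symbol of a microRNA, so 9 genes with 20 probe sets remained of 18193 genes measured. Each gene is given by its brightest probe set and then by all of its probe sets.

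After birth, the main IGF made by the liver passes from fetal IGF2 to circulating IGF1. Growth hormone binds its receptor GHR on hepatocytes, the kinase JAK2 activates the transcription factor STAT5B, and Igf1 and Igfals are transcribed. IGF1 then circulates with a binding protein and the acid-labile subunit encoded by Igfals. Over the same weeks Afp (the fetal serum albumin relative), Igf2 (fetal growth factor), Dlk1 (a progenitor surface protein) and Gpc3 (a cell surface proteoglycan) are silenced, with the homeobox protein ZHX2 as one repressor of Afp and Gpc3.

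Livers came from wild-type mice (wt), E2f3a knock-out mice (3aKO), E2F1 knock-in mice (1KI) and E2F3b knock-in mice (3bKI), all 4 weeks old and on 1 mixed background of FVB/NT, 129S1/Svlmj and C57BL/6NT. The labels do not give the locus or promoter of the knock-ins, the sex of the animals, or whether each array is a separate animal, so p-values measure the spread between arrays, which may be technical. The deposited log2 values exist in 2 normalizations. In the first were 12 arrays of wt, 10 of 3aKO and 10 of 1KI. In the other, the 22 arrays of wt and 3aKO stood beside 5 of 3bKI. The comparisons therefore share their wt or 3aKO arrays and are not independent of each other. They ask whether the postnatal change of these genes differs when E2F alleles are altered.

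The RNA was that of liver: the mean log2 signal of 9 hepatocyte markers was 13.82 ± 0.05 (SD, n = 12) in wt, 13.84 ± 0.06 (n = 10) in 3aKO, 13.89 ± 0.04 (n = 10) in 1KI and 13.86 ± 0.06 (n = 5) in 3bKI. The probe sets of E2f1 and E2f3 did not check the genotypes, since they need not lie in the altered sequence. The 2 E2f3 probe sets differed by -0.17 and -0.25 in 3aKO against wt and did not pass the test, and none of the 3 E2f1 probe sets was higher in 1KI. Technical controls moved with genotype. Hybridization controls, spiked in before the array step, had a mean log2 signal of 10.4 in wt, 10.2 in 3aKO, 11.3 in 1KI and 11.6 in 3bKI. Of the wt arrays, replicates 1 and 2 lay at the higher level of the knock-in arrays. Poly-A controls, spiked in before labelling, stood at 13.8 in 3bKI against 9.04 in wt. The 3′ minus 5′ difference of Gapdh and Actb, an index of RNA integrity, was 0.314 ± 0.038 (SD) in 3bKI, below every wt and 3aKO array, and 1.75 in 1KI replicate 6. The part of these controls in the results below was not tested beyond the values given.

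By their brightest probe sets few of the 9 genes changed, and in most comparisons no more often than genes in general. With limma and an adjusted p under 0.05 over all genes (called, below), 0 of 9 were called in 3aKO against wt, where 0.176% of all genes were called. In 1KI against wt 1 of 9 was called, against 27.6% of all genes, and in 1KI against 3aKO 2 of 9, against 31.0%. In 3bKI against wt 2 of 9 were called, against 29.2%, and in 3bKI against 3aKO 4 of 9, against 34.2%. The gene called in every knock-in comparison was Ghr, which fell each time. Igfals rose in 3bKI, Afp fell in 1KI against 3aKO, and Igf2 and Zhx2 rose in 3bKI against 3aKO. By probe set, 0, 7, 8, 4 and 9 of 20 were called in the same order of comparisons, beside 148, 10219, 11191, 10546 and 12182 of all 34945 probe sets (0.424% in 3aKO against wt and 29.2% to 34.9% in the knock-in comparisons).

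**Figure D1:**
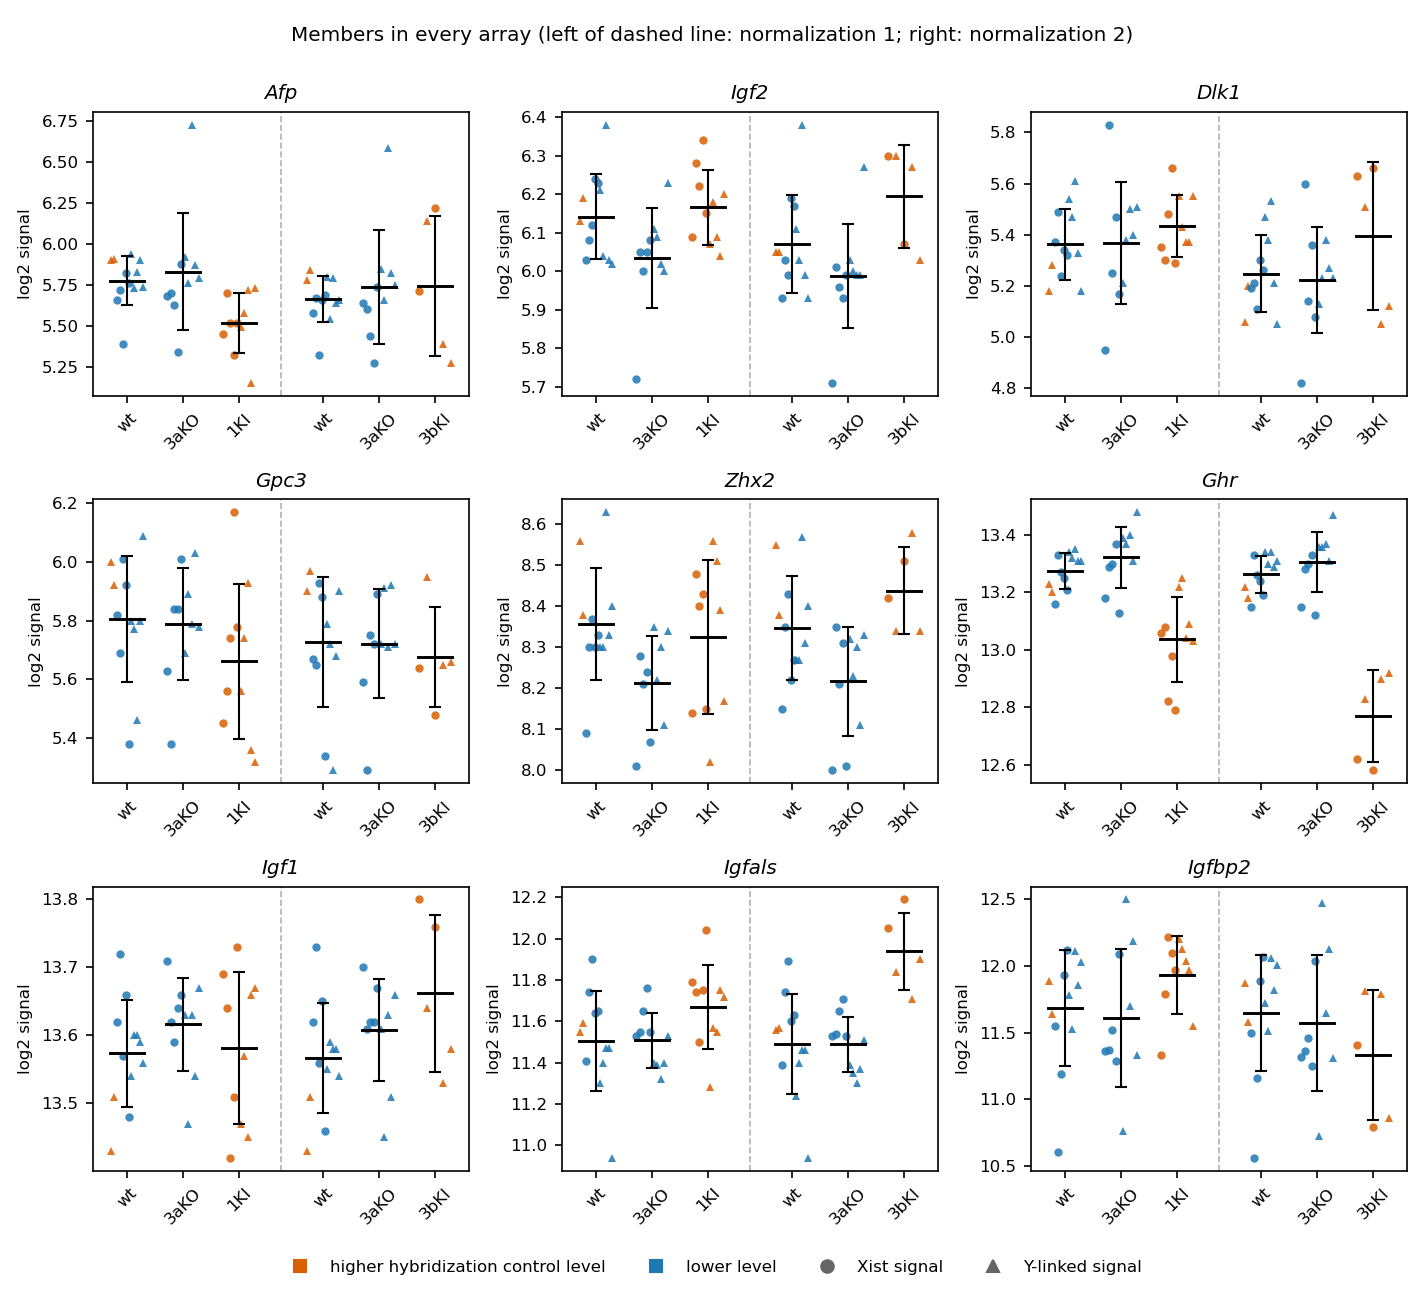
Log2 signal of the brightest probe set of each of the 9 genes in every array (y axes differ between panels), by genotype, with mean and SD in black; colour marks the hybridization control level and shape marks Xist or Y-linked signal. Ghr is the gene whose 3bKI arrays (12.58 to 12.92) lie apart from all wt and 3aKO arrays, and the 3bKI arrays of Igfals (11.71 to 12.19) lie high, with overlap.

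Afp, the marker gene of fetal hepatocytes, was low in all genotypes. Its brightest probe set (1416646_at) ran from 5.39 to 5.94 in wt (median 5.79, n = 12), from 5.34 to 6.73 in 3aKO (median 5.78, n = 10) and from 5.15 to 5.73 in 1KI (median 5.52, n = 10). For scale, the median of all probe sets on an array was 5.91 to 6.00. All 10 1KI arrays lay below the wt mean, but the ranges overlapped. Afp differed by -0.31 ± 0.10 (SE) in 1KI against 3aKO (limma adjusted p = 0.020) and by -0.26 ± 0.10 in 1KI against wt, where it missed the threshold (adjusted p = 0.0503). In a fit over all probe sets the latter just passed it (adjusted p = 0.0491). It also passed without wt replicate 5 (-0.29) and without 1KI replicate 2, 8 or 10 (-0.28 each). In 3bKI the 5 arrays held 5.71, 6.14, 6.22, 5.39 and 5.27, a spread as wide as that of 3aKO, and the difference from wt missed the threshold (0.08 ± 0.15, limma adjusted p = 0.73).

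The other Afp probe sets differed from the brightest in which calls they gave. The probe set 1416645_a_at had a mean of 4.78 ± 0.35 (SD) in wt, 5.44 ± 0.60 in 3aKO and 4.18 ± 0.38 in 1KI, so 3aKO stood highest and 1KI lowest. Its difference in 1KI was -0.60 ± 0.18 (SE) against wt (limma adjusted p over probe sets = 0.011) and -1.26 ± 0.19 against 3aKO. In 3aKO against wt it was 0.66 ± 0.18, which missed the threshold (adjusted p = 0.10) but passed it without 1KI replicate 6, an array that enters this comparison only through the shared estimate of the spread. In 3bKI it fell by 1.07 on the log2 scale against 3aKO and was not called against wt (-0.44 ± 0.23). The probe sets 1436879_x_at and 1436881_x_at also fell in both knock-ins against 3aKO, by 0.67 and 0.39 in 1KI and by 0.89 and 0.43 in 3bKI, and 1436879_x_at fell in 3bKI against wt (-0.46 ± 0.16). The fifth, 1436880_at, was called in no comparison, with differences from -0.06 to 0.11. Of the Afp calls in the knock-ins, 0 held with the control level as a block.

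Igf2, the fetal growth factor, held 6.02 to 6.38 in wt, 5.72 to 6.23 in 3aKO and 6.04 to 6.34 in 1KI. The median of all probe sets on an array was 5.91 to 6.00 there, and whether Igf2 was detected was not tested. The 3bKI arrays held 6.30, 6.30, 6.07, 6.27 and 6.03, against 5.71 to 6.27 in 3aKO. The groups overlapped, all 5 3bKI arrays lay above the 3aKO mean, and Igf2 rose by 0.21 ± 0.07 (SE, limma adjusted p = 0.029). Its second probe set (1415931_at) differed by 0.00 ± 0.08 in that comparison, and the call was lost when any of 3aKO replicate 1 and 3bKI replicates 1, 2 and 4 was left out (0.18, 0.18, 0.18 and 0.19). Against wt the difference of Igf2 was 0.12 ± 0.07 in 3bKI and 0.02 ± 0.05 in 1KI, and neither was called.

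Dlk1 and Gpc3 were called in none of the 5 comparisons. Their group means lay below the median of all probe sets on an array (5.91 to 6.00 and 5.83 to 5.96 in the 2 normalizations). Whether they were detected was not tested. Dlk1 had means of 5.36 ± 0.14 (SD) in wt, 5.37 ± 0.24 in 3aKO and 5.44 ± 0.12 in 1KI, and its differences ran from 0.00 to 0.17. In 3bKI 3 of 5 arrays (5.63, 5.51 and 5.66) lay above the wt mean of 5.25 and the others (5.05 and 5.12) below it. Gpc3 had means of 5.80 ± 0.21, 5.79 ± 0.19 and 5.66 ± 0.26 in wt, 3aKO and 1KI and of 5.68 ± 0.17 in 3bKI, and its differences ran from -0.14 to -0.02. For neither gene was any probe set called.

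Zhx2, the repressor, was measured at 8.09 to 8.63 in wt, 8.01 to 8.35 in 3aKO and 8.02 to 8.56 in 1KI. Its mean was lowest in 3aKO (8.21 ± 0.12, SD, against 8.36 ± 0.14 in wt), a difference that was not called (-0.14 ± 0.06, limma adjusted p = 0.36) although all 10 3aKO arrays lay below the wt mean. The 3bKI arrays held 8.42, 8.34, 8.51, 8.58 and 8.34, and Zhx2 rose by 0.22 ± 0.07 against 3aKO (adjusted p = 0.015) while its difference from wt was 0.09 ± 0.07. Leaving out 3bKI replicate 4 ended the call (0.19). Of 7 genes listed as ZHX2 targets, 0 were called in 3aKO, 1KI or 3bKI against wt. Of all genes, 0.176%, 27.6% and 29.2% were called there. In 3bKI against wt the targets Elovl3 (1.47 ± 0.58) and Mup3 (-0.30 ± 0.12) missed the threshold (limma adjusted p = 0.054 and 0.063). In 1KI against 3aKO the called target was Afp, where 31.0% of all genes were called. In 3bKI against 3aKO, where 34.2% were, it was Mup3, a major urinary protein, which fell (-0.36 ± 0.13).

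The wider list of 25 fetal liver genes, which holds 4 of the genes above, had 7 called genes when 1KI was set against wt, and 1 when 3bKI was. In 3aKO against wt 0 were called. In 1KI 1 rose and 6 fell against wt, where 27.6% of all genes were called, and 1 rose and 6 fell against 3aKO, where 31.0% were. Against wt the list had a median of -0.06 beside -0.05 over all genes. The strongest were Plagl1, an imprinted zinc finger factor of fetal growth (-0.67 ± 0.09), Igf2bp3, a fetal RNA-binding protein that binds Igf2 mRNA (-0.39 ± 0.07), and Peg3, an imprinted zinc finger gene, which rose (0.77 ± 0.18). Sox4, Mest, Epcam and Hbb-y (the embryonic beta globin) also fell, by 0.37, 0.28, 0.19 and 0.20. With the control level as a block Plagl1 (-0.58) and Peg3 (1.32) were still called and the other 5 calls against wt were lost. In 3bKI against wt the called gene was Fabp5, a fatty acid binding protein, which fell (-0.65 ± 0.24), and in 3bKI against 3aKO it was Igf2. The Fabp5 call was lost with the control level as a block (-0.44) and with RNA integrity as a covariate (-0.74). So 1 of 25 fetal genes was called in 3bKI against wt, where 29.2% of all genes were. Tested alone, genes above the median signal gave 4556 calls there, beside 5318 over all genes. These counts come from separate fits, each with its own adjustment, and the share of dim genes called was not counted. Afp, Igf2, Dlk1 and Gpc3 lay at percentiles 26 to 38 of signal in that normalization. The list was not set against genes of like signal. Over all genes, blocking on the control level cut the calls from 5026 to 782 in 1KI against wt. In 3bKI against wt it cut them from 5318 to 1583. RNA integrity as a covariate left 605 in 3bKI and 5239 in 1KI against wt. Calls lost in this list and in those below are to be read beside these counts.

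Markers of blood-forming cells, which fill the fetal liver, gave these values beside the fetal genes. Of 13 erythroid markers, 0 were called in 3aKO, 2 rose in 1KI against wt and 3 rose in 3bKI against wt, where 27.6% and 29.2% of all genes were called. Blocking on the control level left 0 of 13 called in either, and with RNA integrity as a covariate 0 in 3bKI and 2 in 1KI. The 3bKI genes were Alas2 (1.09 ± 0.33) and Cpox (0.62 ± 0.13), enzymes of haem synthesis, and Tal1, a haematopoietic factor (0.16 ± 0.06). The log2 of the summed signal of the list ran from 11.03 to 12.05 in wt and from 11.56 to 12.53 in 3bKI. Of 14 proliferation genes, 0 were called in 3aKO, 1KI or 3bKI against wt, and the list median in 1KI was -0.38. In whole liver RNA, fewer cells of a type and less RNA per cell cannot be told apart.

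The imprinted growth genes, 22 in number, moved in both directions. Of these, 4 rose and 4 fell in 1KI against wt, where 27.6% of all genes were called. Kcnq1ot1, the long noncoding RNA of the imprinted cluster next to Igf2, rose by 1.20 ± 0.16, and Ppp1r9a rose by 0.41 ± 0.09. Against wt, 2 rose and 2 fell in 3bKI, where 29.2% of all genes were called, among them Kcnq1ot1 (0.70 ± 0.18) and Igf2r, the receptor that clears IGF2, which fell (-0.77 ± 0.08). With the control level as a block Kcnq1ot1 (1.03) and Igf2r (-0.74) were still called in 3bKI, and Kcnq1ot1 (1.56), Peg3, Ppp1r9a and Plagl1 in 1KI. With RNA integrity as a covariate Igf2r (-0.68) was the 1 called in 3bKI, and Kcnq1ot1 (0.72) lost its call. In 3aKO against wt 0 of 22 were called.

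Ghr, the growth hormone receptor, fell in both knock-ins by its brightest probe set, and its other probe sets, given below, did not all follow. Its brightest probe set (1417962_s_at) held 13.16 to 13.35 in wt (median 13.29), 13.13 to 13.48 in 3aKO (median 13.34) and 12.79 to 13.25 in 1KI (median 13.05). In the second normalization the 3bKI arrays held 12.62, 12.83, 12.58, 12.90 and 12.92, against 13.15 to 13.34 in wt and 13.12 to 13.47 in 3aKO. The 1KI arrays overlapped with wt, with 8 of 10 outside the wt range, and the 3bKI arrays did not overlap with either group. The order of means was 3aKO (13.32 ± 0.10, SD), wt (13.27 ± 0.06) and 1KI (13.04 ± 0.15) in the first normalization, where the difference of 3aKO and wt missed the threshold (0.05 ± 0.05), with 3bKI (12.77 ± 0.16) lowest in the second.

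Ghr was lower by 0.24 ± 0.05 (SE) on the log2 scale in 1KI than in wt (limma adjusted p = 4.1e-04) and 1.41-fold lower in 3bKI than in wt (-0.49 ± 0.06, adjusted p = 2.3e-07). Against 3aKO the differences were -0.29 ± 0.05 in 1KI (adjusted p = 5.3e-05) and -0.54 ± 0.06 in 3bKI (adjusted p = 7.1e-08). The wt replicates 1 and 2, which shared the higher control level, held 13.22 and 13.18 in the second normalization, inside the range of the other wt arrays and above every 3bKI array. Both had Y-linked signal, and Ghr differed by -0.13 in Xist-signal against Y-signal arrays (below). With the control level as a block Ghr was lower by -0.43 in 3bKI against wt (adjusted p = 0.0039) and was no longer called in 1KI (-0.18, adjusted p = 0.26). With RNA integrity as a covariate it was -0.39 in 3bKI against wt and not called (adjusted p = 0.056), while 1KI kept its call. In 3bKI the index (0.275 to 0.360) lay below every wt array (0.475 to 0.650), so the covariate and the genotype could not be well separated. In the first normalization its spread in 1KI (SD 0.40, against 0.05 in wt) came with replicate 6 at 1.75. The kept call is therefore no check on RNA integrity in the other 1KI arrays.

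Ghr has 3 probe sets, and in 3bKI the fall was called in the brightest alone. In 3bKI against wt 1451501_a_at differed by 0.03 ± 0.08 and 1451871_a_at by -0.07 ± 0.11, and neither was called against wt or 3aKO. In 1KI against wt 1451501_a_at was at -0.11 ± 0.07 and was not called. The probe set 1451871_a_at fell there by 0.43 (limma adjusted p over probe sets = 0.044), but 1KI replicate 6, the array with the high 3′ minus 5′ index, held 8.88 where the other 9 held 10.19 to 11.24, and without it the difference was -0.26 and not called. Among arrays of 1 genotype these probe sets correlated with each other at r = 0.80 over 32 arrays and with the brightest one at 0.41 and 0.19. In the 20 arrays of the lower control level the values were 0.72, 0.78 and 0.67, and in the 12 of the higher level, 1KI replicate 6 among them, 0.92, 0.21 and 0.01. With the mean of the 3 probe sets Ghr was at -0.18 in 3bKI against wt and not called (adjusted p = 0.062), and at -0.26 in 1KI against wt and called (adjusted p = 0.015). The positions of the probes in the transcripts were not used here.

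**Figure D2:**
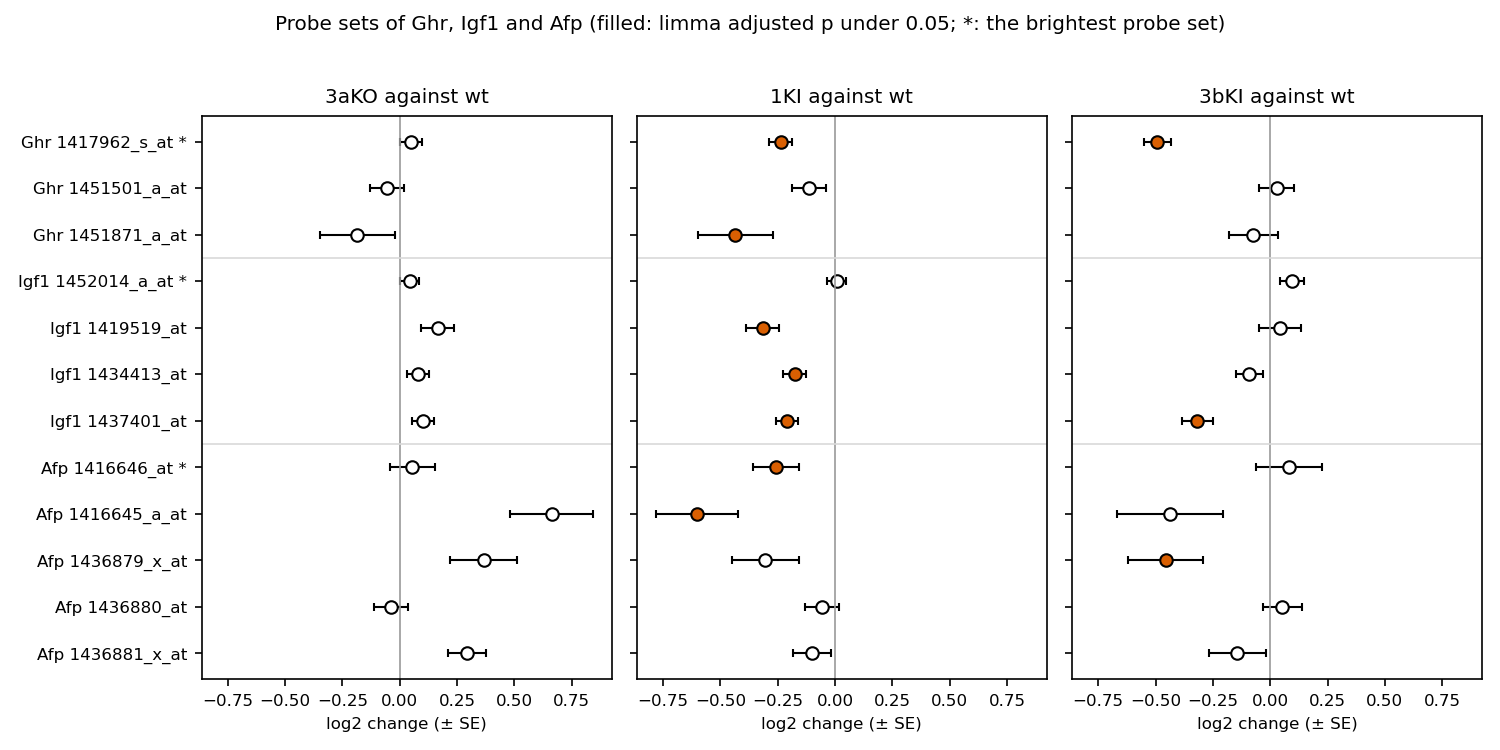
Log2 change with its SE for every probe set of Ghr, Igf1 and Afp in 3aKO, 1KI and 3bKI against wt; filled points passed an adjusted p of 0.05 over all probe sets and the asterisk marks the brightest probe set of a gene. Ghr in 3bKI against wt was called in its brightest probe set alone (-0.49), and Igf1 in 1KI was called in the 3 others (-0.32 to -0.18) and not in its brightest (0.01).

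Promoters of the genes were read to show the sequences around their start sites, from RefSeq on build GRCm38.p6 (250 bases before to 50 after a start). They covered 15 promoters of 8 of the 9 genes; Zhx2 was not matched. Of these promoters, 0 of 15 held one of the E2F words TTTCCCGC, TTTCGCGC, TTTGCCGC or TTTGGCGC on either strand, which 2.26% of 32817 promoters hold. The 2 Ghr promoters, shown because the brightest Ghr probe set fell in both knock-ins, hold neither these words nor the STAT5 word TTCNNNGAA. This says only that these letters are not in these windows.
Ghr chr15:3583303-3583602 (- strand): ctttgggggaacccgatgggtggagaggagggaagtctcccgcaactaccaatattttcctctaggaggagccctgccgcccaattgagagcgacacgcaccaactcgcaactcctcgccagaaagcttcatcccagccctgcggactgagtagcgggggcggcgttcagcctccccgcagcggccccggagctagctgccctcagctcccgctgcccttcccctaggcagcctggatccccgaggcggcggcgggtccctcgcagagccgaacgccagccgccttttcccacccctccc
Ghr chr15:3581793-3582092 (- strand): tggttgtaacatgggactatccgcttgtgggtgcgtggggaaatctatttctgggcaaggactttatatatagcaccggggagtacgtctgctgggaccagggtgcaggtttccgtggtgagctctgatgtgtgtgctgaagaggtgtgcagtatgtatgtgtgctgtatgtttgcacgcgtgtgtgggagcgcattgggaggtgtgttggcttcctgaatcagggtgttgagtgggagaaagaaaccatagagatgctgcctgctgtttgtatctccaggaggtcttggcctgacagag
The STAT5 word was found in 2 of 15 promoters, and in 8.29% of all. Both belong to Igfals, the growth hormone target described next, and are shown with the word in capitals, at positions -236 (TTCTCAGAA) and -58 (TTCCTAGAA) relative to their start sites. A match is a description of letters, not a bound site.
Igfals chr17:24877594-24877893 (+ strand): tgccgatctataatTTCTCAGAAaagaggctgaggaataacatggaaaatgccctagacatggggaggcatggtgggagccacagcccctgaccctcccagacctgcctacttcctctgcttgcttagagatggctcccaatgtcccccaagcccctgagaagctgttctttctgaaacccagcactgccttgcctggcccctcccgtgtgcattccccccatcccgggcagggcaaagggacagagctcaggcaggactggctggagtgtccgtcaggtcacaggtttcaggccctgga
Igfals chr17:24877981-24878280 (+ strand): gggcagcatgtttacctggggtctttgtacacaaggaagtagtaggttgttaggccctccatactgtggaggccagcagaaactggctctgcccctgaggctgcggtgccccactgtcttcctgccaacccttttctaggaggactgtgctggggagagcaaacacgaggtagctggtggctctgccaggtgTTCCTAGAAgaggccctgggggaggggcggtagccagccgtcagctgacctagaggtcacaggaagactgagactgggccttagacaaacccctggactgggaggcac

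Igfals, the acid-labile subunit that keeps IGF1 in the circulation, rose in 3bKI. Its single probe set (1422826_at) held 12.05, 11.84, 12.19, 11.71 and 11.90 in 3bKI, against 10.94 to 11.89 in wt (median 11.51) and 11.30 to 11.71 in 3aKO (median 11.52). All 5 arrays lay above the wt and 3aKO means, 3 of 5 lay above every wt array, and the groups overlapped. The difference was 0.45 ± 0.10 (SE) against wt, a 1.36-fold rise (limma adjusted p = 0.0011), and 0.45 ± 0.10 against 3aKO (adjusted p = 0.0012). It was smaller and not called with the control level as a block (0.37, adjusted p = 0.16, against wt) and with RNA integrity as a covariate (0.36, adjusted p = 0.39). The wt arrays at the higher control level held 11.56 and 11.57, below all 5 3bKI arrays. Both had Y-linked signal, and Igfals differed by 0.25 in Xist-signal against Y-signal arrays (below). In 1KI Igfals was at 11.28 to 12.04 and its differences of 0.16 ± 0.08 from wt and 0.16 ± 0.09 from 3aKO were not called, and in 3aKO against wt the difference was 0.00 ± 0.08. Igfals thus stood high and the brightest probe set of Ghr low in the same 5 3bKI arrays. The Ghr probe sets 1451501_a_at and 1451871_a_at were not called in 3bKI against wt (0.03 and -0.07).

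Igf1, the growth hormone target that carries its signal to other tissues, was called or not depending on the probe set. The brightest (1452014_a_at) lay at 13.43 to 13.72 in wt, 13.47 to 13.71 in 3aKO and 13.42 to 13.73 in 1KI, and the 3bKI arrays held 13.80, 13.64, 13.76, 13.53 and 13.58. It was called in no comparison, with differences from -0.04 to 0.10. The other 3 fell in 1KI against wt: 1419519_at from 12.33 ± 0.18 (SD) to 12.02 ± 0.20, 1434413_at from 13.26 ± 0.09 to 13.09 ± 0.15 and 1437401_at from 13.11 ± 0.06 to 12.90 ± 0.15. These differences were -0.32 ± 0.07 (SE), -0.18 ± 0.05 and -0.21 ± 0.05, and each passed the limma test over all probe sets (adjusted p = 0.0011, 0.0059 and 0.0013). Against 3aKO they were larger, at -0.48, -0.26 and -0.31, and all were called.

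In 3bKI the probe set 1437401_at of Igf1 fell by 0.32 on the log2 scale against wt (limma adjusted p over probe sets = 6.4e-04) and by 0.41 against 3aKO. Its 5 arrays held 13.00, 12.50, 13.07, 12.67 and 12.82, against 12.99 to 13.23 in wt. The probe set 1434413_at fell against 3aKO alone (-0.18 ± 0.06), and 1419519_at was called in neither comparison (0.04 and -0.12). With the mean of the 4 probe sets Igf1 was called as lower in 1KI against wt (-0.17, adjusted p = 0.0029) and in 3bKI against 3aKO (-0.16, adjusted p = 0.037). With the control level as a block 0 of the Igf1 probe sets was called in any comparison (1437401_at was at -0.19 in 1KI and -0.28 in 3bKI against wt). Leaving out 1KI replicate 6 kept the 3 calls in 1KI against wt.

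Igfbp2, a binding protein abundant in the fetal and fasted liver, varied more between arrays than the brightest probe set of any other of the 9 genes. Some other probe sets varied more within a group: Afp 1416645_a_at in 3aKO (SD 0.60, against 0.52) and Ghr 1451871_a_at in 1KI (SD 0.66, against 0.29). Igfbp2 ran from 10.60 to 12.12 in wt (median 11.82), from 10.76 to 12.50 in 3aKO (median 11.44) and from 11.33 to 12.22 in 1KI (median 12.00). The 3bKI arrays held 11.41, 11.81, 10.79, 11.79 and 10.86. It was called in no comparison. Its differences were 0.24 ± 0.17 (SE) in 1KI and -0.31 ± 0.23 in 3bKI against wt. With errors of this size, changes below about the spread of the arrays (SD 0.44 in wt) could be missed. In 3bKI, where the error was larger, larger changes could be missed too.

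Among arrays of 1 genotype, Igfbp2 and Igf1 ran against each other. Over the 32 arrays of the first normalization, with genotype means removed, the correlation was r = -0.57 and rho = -0.57. It was the strongest of 36 pairs of the 9 genes (2-sided permutation within genotypes, adjusted p = 0.0065 for r and 0.018 for rho). Without the 2 arrays farthest from the median of Igf1 it was -0.50, at the lower and higher control levels -0.64 (20 arrays) and -0.70 (12 arrays), and in arrays with Xist and Y-linked signal -0.52 and -0.55. The other Igf1 probe sets gave -0.52, -0.36 and -0.18 with Igfbp2, so the relation was weakest for 1437401_at. Igf2 and Zhx2 gave r = 0.51 (permutation adjusted p = 0.048), which rho did not bear out (0.44, adjusted p = 0.16) and which was 0.35 without 2 arrays.

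**Figure D3:**
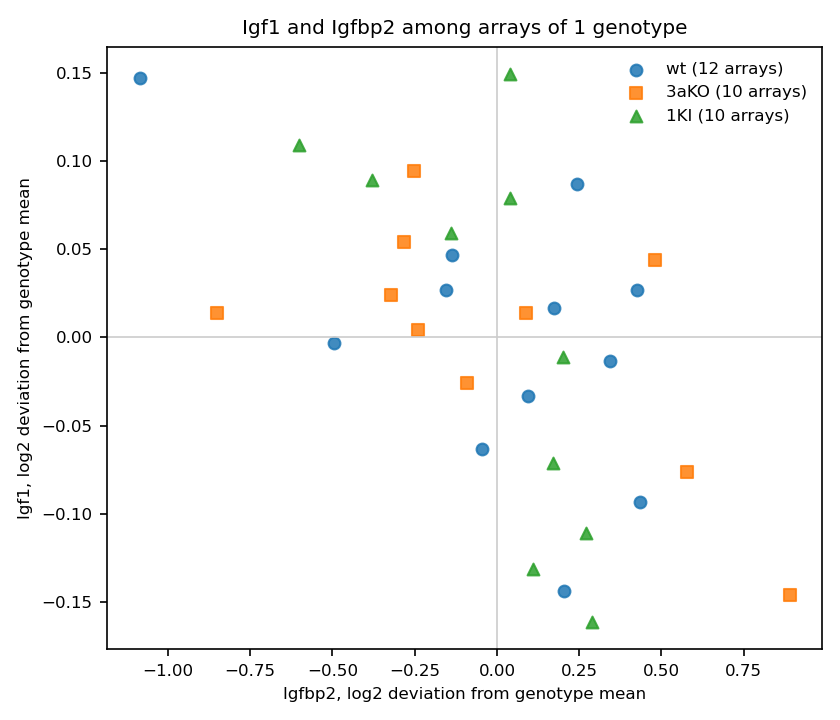
Igf1 against Igfbp2 in each of the 32 arrays of the first normalization, both as log2 deviations from the mean of their genotype; symbols mark wt, 3aKO and 1KI. Arrays high in Igfbp2 tended to be low in Igf1 (r = -0.57).

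Over these 32 arrays the genes above the median signal whose deviations were most like those of Igf1 were Acat1 (r = 0.74), a mitochondrial thiolase of ketone metabolism, Timd2 (0.67) and Cyp2c68 (0.66). Those most like Igfbp2 were Supt5 (0.70), a transcription elongation factor, Phb2 (0.68), a mitochondrial prohibitin, and Chdh (0.68), choline dehydrogenase. For Afp the values were lower, with Adam33 (0.61), Nxph3 (0.59) and Col16a1 (0.58). They include 3aKO replicate 8, whose Afp value lay apart from its group (6.73, the nearest at 5.92), and were not computed without it. These are the highest of 9095 correlations for Igf1 and Igfbp2 and of 9096 for Afp, and are given as a description.

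The growth hormone pathway beyond the receptor was followed in 21 genes. In 3aKO against wt, where 0.176% of all genes were called, the called gene was Cux2, which rose (0.32 ± 0.05). Cux2 is a homeobox repressor with female-biased expression in liver. Arrays with Xist and Y-linked signal numbered 5 and 7 in wt and 5 and 5 in 3aKO, and no value of Cux2 by this signal is given here. In 1KI against wt 5 rose and 3 fell, where 27.6% of all genes were called. Sirpa, a receptor that recruits phosphatases, fell most (-0.78 ± 0.08) and was the 1 of these 8 called with the control level as a block too (-0.76). Jak2, the receptor's kinase, and the adaptor Shc1 fell by 0.20 and 0.22, while Sh2b1, a JAK2 adaptor, Hnf4a, Socs3 (a cytokine-induced inhibitor), Ptpn1 and Stat3 rose by 0.32, 0.22, 0.58, 0.25 and 0.23. In 3bKI against wt 4 rose and 3 fell, where 29.2% of all genes were called: Jak2 fell (-0.37 ± 0.07) together with Sirpa (-0.36 ± 0.13) and Egfr (-0.57 ± 0.20), and Stat5b, the factor that drives Igf1 and Igfals, rose (0.44 ± 0.11), as did Shc1 (0.41 ± 0.07), Socs3 (0.93 ± 0.26) and Cux2 (0.21 ± 0.07). In 3bKI 0 of these 7 were called with the control level as a block or with RNA integrity as a covariate, although all kept their direction. Calls were lost in genes at large too. Over all genes, 5318 were called in 3bKI against wt, 1583 with the block and 605 with the covariate. Socs2 and Cish, the direct STAT5 targets that report growth hormone signalling, were not called in any comparison, with Socs2 at -0.89 ± 0.37 in 3bKI against wt.

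Receptors, binding proteins and modifiers of IGF and insulin, 26 genes, gave more falls than rises in 3bKI. Against wt 11 fell and 1 rose, where 29.2% of all genes were called, 2885 lower and 2433 higher. Igf2r fell by 0.77, Insr, the insulin receptor, by 0.67 and Igf1r, the IGF1 receptor, by 0.22, and the insulin-regulated factors Foxo3 and Foxo1 fell by 0.96 and 0.64. The adaptors Irs1 and Pik3r1 fell by 0.48 and 0.42, and Igfbp5, Igfbp6 and Igfbp4 by 0.88, 0.50 and 0.10. The gene that rose was Igfbp7 (0.96 ± 0.07), a secreted protein related to the binding proteins. The list median was -0.10 beside 0.00 over all genes. With the control level as a block 8 of these 12 were still called, among them Igf2r (-0.74), Insr (-0.67), Foxo3 (-0.89), Foxo1 (-0.83) and Igfbp7 (0.89). With RNA integrity as a covariate 3 were called (Igfbp7, Igf2r and Igfbp5) and all 12 kept their direction.

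Of these genes, 3 rose and 5 fell in 1KI against wt, where 27.6% of all genes were called. Igfbp7 rose by 0.44 ± 0.06, Irs2 by 0.44 ± 0.15 and Akt1 by 0.32 ± 0.07. Igfbp3, the main partner of IGF1 and the acid-labile subunit, fell by 0.51, Irs1, an insulin receptor substrate, by 0.60, Htra1, a protease that cuts binding proteins, by 0.61, Igf2bp3 by 0.39 and Igf2r by 0.19. Blocking on the control level, Irs1 (-0.62) and Htra1 (-0.85) were still called and the other 6 were not. Insr, Foxo1 and Foxo3 were not called in 1KI against wt (-0.12, 0.16 and 0.10). Whether 1KI and 3bKI differ was not tested. Against 3aKO 4 rose and 8 fell in 1KI and 3 rose and 7 fell in 3bKI, where 31.0% and 34.2% of all genes were called. Blocking on the control level left 0 of these 12 and 6 of these 10 called, and with RNA integrity as a covariate 12 and 1. Over all genes, the calls against 3aKO went from 5636 and 6218 to 417 and 1232 with the block. With the covariate they were 6284 and 116. In 3aKO against wt 0 of 26 were called.

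**Figure D4:**
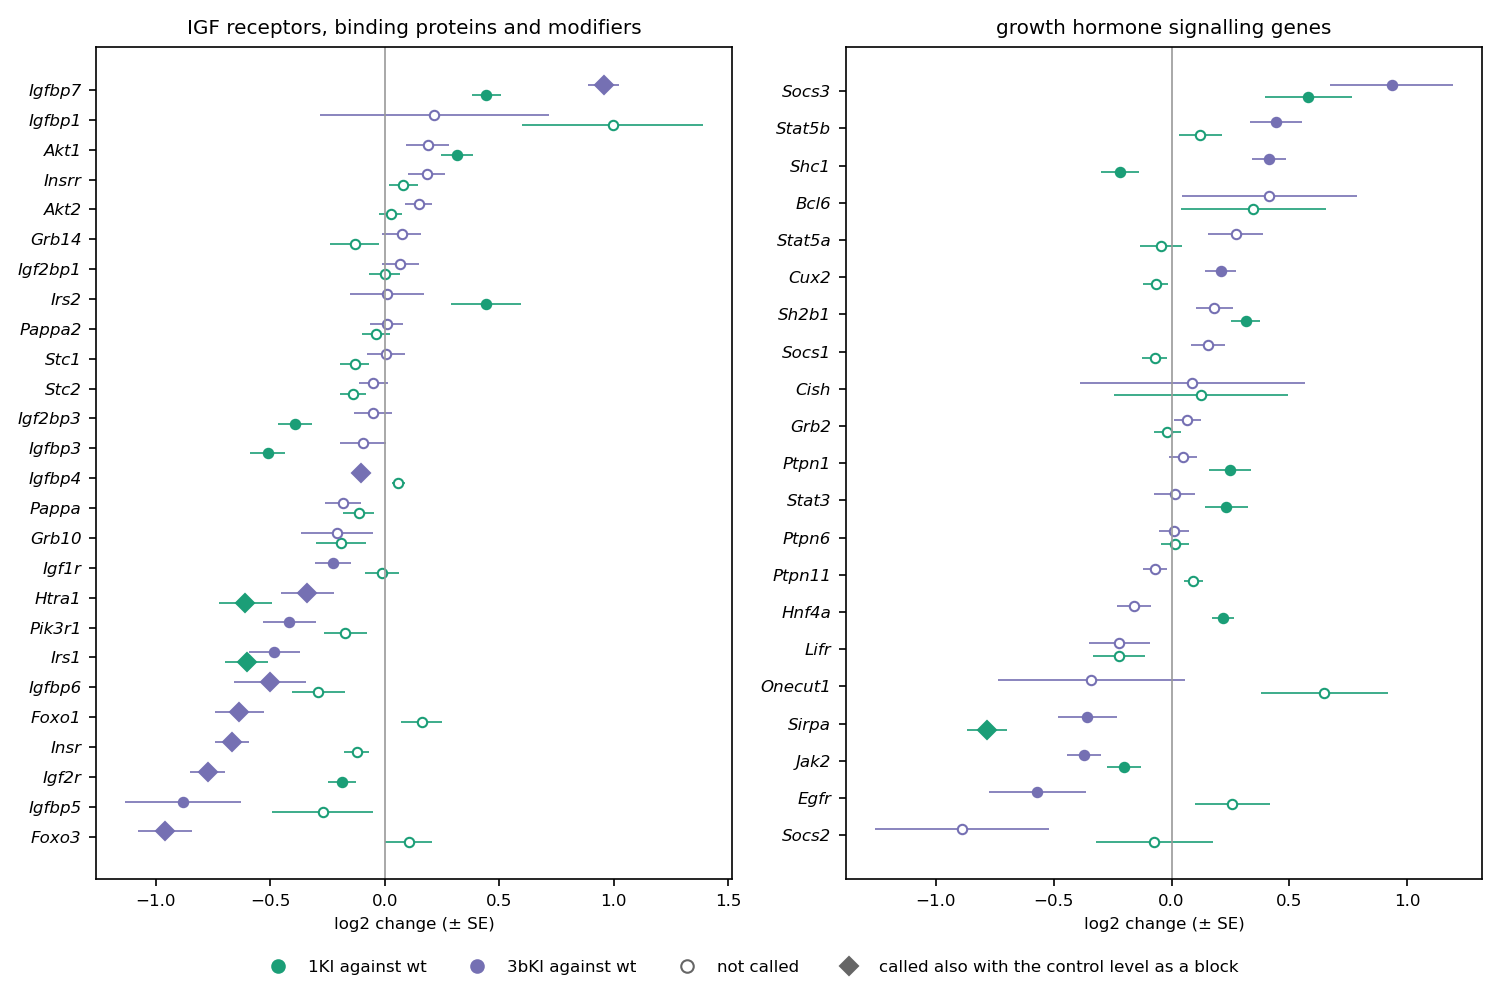
Log2 change with its SE in 1KI and 3bKI against wt for 26 genes of IGF and insulin handling and 21 genes of growth hormone signalling; filled symbols passed an adjusted p of 0.05 and diamonds also passed it with the level of the hybridization controls blocked. In 3bKI 11 of the 26 genes fell, with Foxo3 (-0.96), Igf2r (-0.77) and Insr (-0.67) among them, and Igfbp7 rose (0.96).

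Adult hepatocyte genes gave the other side of maturation. Of 22, 0 were called in 3aKO against wt and 2 in 1KI against wt, where Dpys and Uox, enzymes of pyrimidine and urate breakdown, fell by 0.23 and 0.27 and 27.6% of all genes were called. Both calls were lost with the control level as a block (-0.26 and -0.19). The 3bKI livers had 3 higher and 6 lower than wt, where 29.2% of all genes were called. Gys2, the liver glycogen synthase, fell by 1.10 ± 0.17 and Pck1, of gluconeogenesis, by 0.45 ± 0.09, and Hal, of histidine breakdown, rose by 0.68 ± 0.12. These 3 were called also with the control level as a block (-1.07, -0.54 and 0.67). With RNA integrity as a covariate Pck1 (-0.65) was the 1 of the 9 still called, with Gys2 at -0.99 and Hal at 0.76. Cyp8b1, of bile acid synthesis, and Hamp, the iron hormone hepcidin, rose (0.75 ± 0.25 and 0.33 ± 0.12), and Uox, Car3, Dpys and Cyp2c37 fell by 0.28, 0.32, 0.21 and 0.62.

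Since growth hormone acts on the liver differently in males and females, the arrays were also compared by Xist and Y-linked signal, which split them 5 to 7 in wt, 5 to 5 in 3aKO and in 1KI and 2 to 3 in 3bKI. Of the 9 genes, Igfals and Ghr were called in both normalizations, where 5.16% and 5.73% of all genes were. Igfals was higher in Xist-signal arrays by 0.23 ± 0.06 (limma adjusted p = 0.016) and 0.25 ± 0.06 (adjusted p = 0.0061). Ghr was lower by 0.12 ± 0.04 (adjusted p = 0.045) and 0.13 ± 0.04 (adjusted p = 0.038). In 3bKI the Xist-signal arrays held 12.62 and 12.58 for Ghr and the others 12.83, 12.90 and 12.92. Within Xist-signal arrays Ghr was lower in 3bKI than in wt (-0.63) and within Y-signal arrays (-0.40), and the difference between these missed the threshold (limma adjusted p = 0.29). Igfals in 3bKI was higher by 0.47 in the first and 0.44 in the second kind of array. For none of the 9 genes did the interaction of genotype and sex signal pass the test in any of the 5 comparisons.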

How the data were processed

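Whole liver RNA of 37 arrays was measured on Affymetrix mouse arrays, from 5 ug of total RNA per array per the labels. The deposited values are log2 signals per probe set that the authors normalized in 2 sets of arrays; no source used here names the method, and the log base was taken from the range of the values (2.13 to 15.06). Since wt and 3aKO arrays are in both sets, 59 columns hold 37 arrays, and 1KI and 3bKI, which share no normalization, were not set against each other here.

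Probe sets with 1 gene symbol (34945 of 45101) were kept. Each of 18193 genes was given by the probe set of highest mean, and a fit over all 34945 probe sets served for single probe sets. Differences were tested with limma 3.58.1 in R 4.3.3 over all arrays of a normalization, with Benjamini-Hochberg adjustment over all genes and a threshold of 0.05. The fit was tested on simulated data. The number of arrays limits the precision. Correlations used 1e+05 permutations within genotypes.

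The genes and the 15 gene lists were chosen with earlier results of these data known. The rule for named genes took the 9 members, up to 3 called genes of smallest p per list and comparison, and the 3 genes most like Afp, Igf1 and Igfbp2; all other list genes in the text, called (Sox4, Mest) or not (Socs2, Cish), were named after their values were seen. Alternatives used the hybridization control level as a block, RNA integrity and sex signal as covariates, other scalings and probe set rules, and left out each array in turn.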

Additional observations from a re-analysis of the deposited data

Results flagged for a closer look

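Of 27 sets of values tested for an array apart from its group, 2 held one, and chance gives about 1 in 20. Afp in 3aKO replicate 8 was 6.73, the highest of 10, with the nearest array at 5.92. Igf2 in 3aKO replicate 1 was 5.72, the lowest of 10, with the nearest at 6.00.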

How the results depend on the processing

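Of the 9 genes, 0 were called in 3aKO against wt under every alternative run. With the level of the hybridization controls blocked, 0 were called in 1KI against wt and against 3aKO, and 1 (Ghr) in 3bKI against wt and against 3aKO; with the sex index added the counts were the same. With RNA integrity as a covariate 0 were called in both 3bKI comparisons. With only arrays of the shared control level, an alternative chosen after seeing the data, 0 were called in 1KI and in 3bKI against wt. In 1KI against wt 2 were called with equal array medians, with quantile normalization, with only the 2 groups compared and with the replicate block, 3 with the mean of the probe sets and 0 in Y-signal arrays. In 1KI against 3aKO 1 was called among genes above the median signal and with only the 2 groups. In 3bKI against wt 1 was called with the mean of the probe sets. In 3bKI against 3aKO 2 were called with equal medians and in Y-signal arrays. Leaving out 1 array gave 0 to 0 in 3aKO against wt, 1 to 2 and 2 to 3 in 1KI against wt and 3aKO, and 2 to 2 and 2 to 4 in 3bKI against wt and 3aKO.

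With the mean of the probe sets the sign turned for Igf1 in 1KI against wt (-0.17) and 3bKI against 3aKO (-0.16) and for Afp in 3bKI against 3aKO (-0.45), all called there. It turned also, without a call, for Afp (-0.18) and Igf1 (-0.07) in 3bKI against wt. The mean weighs all probe sets of a gene alike.

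Same-numbered arrays correlated from -0.345 to 0.383 in their deviations, so the numbers do not pair the arrays; the replicate block moved the count in 1KI against wt from 1 to 2.

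The control level was shared by 2 wt arrays and the knock-in arrays, so the block estimates rest on few arrays, and knock-in against 3aKO is then linked through wt alone.

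Over all genes, the level block left 15 called in 3aKO against wt, 782 and 417 in 1KI against wt and 3aKO and 1583 and 1232 in 3bKI against wt and 3aKO. RNA integrity left 605 and 116 in the 3bKI comparisons. The 32 genes of 3aKO against wt became 307 with array weights and 14 with the replicate block. Only arrays of the shared level gave 17, 174 and 133 in 3aKO, 1KI and 3bKI against wt. With equal array medians the calls split 1578 higher and 4321 lower in 1KI against wt (1850 and 3176 as deposited), and 1742 and 3693 in 3bKI against wt (2433 and 2885); against 3aKO they split 2006 and 4042 in 3bKI (3002 and 3216) and 1731 and 4494 in 1KI (2174 and 3462).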
